A study of Mus musculus with 6 samples.

Results

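Non-homologous end joining rejoins the broken ends of a DNA double-strand break without a template, and its 10 genes considered here were taken by name: Xrcc5, Xrcc6, Prkdc, Lig4, Xrcc4, Nhej1, Dclre1c, Poll, Polm and Polq. Of these, 9 had an array probe set annotated with a single gene symbol, 1 probe set each, out of 19938 genes measured in the same way, and Dclre1c (Artemis, a nuclease) was not analysed here. RNA came from mouse embryonic fibroblasts (MEFs), either H2AX wild type (WT) or H2AX knockout (KO), grown in serum-containing DMEM with no special treatment. Each genotype was measured on 3 Affymetrix Gene ST arrays, and values are log2 expression as normalized by the authors. The labels give neither embryo age nor the number of embryos or cell lines per genotype, so that genotype and cell line cannot be told apart, and p-values measure only the spread between these arrays, which may be technical. The transcript of the targeted gene, H2ax, was 8.957, 9.182 and 9.003 on the WT arrays and 7.688, 7.77 and 7.671 on the KO arrays. It fell 2.53-fold, but its KO values still lay above the mean of the median gene (6.39). This is a check only as far as its probes fall within the deletion, which no source used here gives.

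The Ku heterodimer of Ku80 (Xrcc5) and Ku70 (Xrcc6) encircles a broken DNA end, recruits the kinase DNA-PKcs (Prkdc), and thereby brings in the ligase IV complex of Lig4, Xrcc4 and the scaffold XLF (Nhej1). Polymerases lambda (Poll) and mu (Polm) fill short gaps at the ends. Polymerase theta (Polq) serves a separate, microhomology-based joining route. H2AX, phosphorylated beside the break, holds repair factors on the flanking chromatin and is not itself part of the joining complex. Fibroblasts use this pathway throughout the cell cycle, and mice or cells without Ku, DNA-PKcs or ligase IV are sensitive to ionizing radiation.

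End joining genes moved in opposite directions in H2AX KO cells, and the largest difference between partners was within the Ku heterodimer itself. Xrcc5 fell 1.99-fold, whereas Xrcc6, which encodes its obligate partner, rose 1.26-fold. Prkdc, Poll and Polq also rose, by 1.21- to 1.22-fold, and Nhej1 fell 1.19-fold. The test was limma across all genes, with Benjamini-Hochberg adjustment, and a gene is called where its adjusted p was under 0.05. By this rule 4 of the 9 measured genes were higher, 2 were lower and 3 (Lig4, Xrcc4 and Polm) did not pass. Over all genes 33.4% were called, 18.4% as higher and 15.0% as lower, so that a call by itself does not set a gene apart in this comparison. With the 50% of genes of the lowest mean left out, 3095 were called as higher and 2399 as lower, against 3676 and 2990 of all genes. These counts come from the remaining 50% of genes, so the share called was larger among brighter genes than over all genes. All 9 measured members are among these brighter genes. The shares over all genes given beside the members are thus not matched for expression level, and do not show an excess of calls. The median log2 change was 0.15 over the 9 genes and 0.02 over all genes.

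The sequences before the start sites of 4 called genes are shown because members of a single pathway, and of a single protein complex in the case of Ku, moved apart. They are the 250 bases before the annotated start, 5′ to 3′ on the strand of the gene, from RefSeq (GRCm38.p6), whose promoter table held 8 of the 10 genes. Capitals mark matches, on either strand, to the CCAAT box CCAAT, the GC box GGGCGG, the E2F motifs TTTCCCGC and TTTGGCGC, the E-box CACGTG and the cell cycle motif TTTGAA. Also searched were the ETS motif CCGGAAGT, the NRF1 motif GCGCATGC and the core TGACNNNGC of the antioxidant response element bound by NRF2, none of which lies in these 4 windows.
Xrcc5 (chr1:72307171-72307420, plus strand): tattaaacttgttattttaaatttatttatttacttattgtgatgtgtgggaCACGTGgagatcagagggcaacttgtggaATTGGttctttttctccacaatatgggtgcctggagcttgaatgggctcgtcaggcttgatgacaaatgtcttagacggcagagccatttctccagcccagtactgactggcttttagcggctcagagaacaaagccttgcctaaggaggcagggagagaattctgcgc
Xrcc6 (chr15:82016119-82016368, plus strand): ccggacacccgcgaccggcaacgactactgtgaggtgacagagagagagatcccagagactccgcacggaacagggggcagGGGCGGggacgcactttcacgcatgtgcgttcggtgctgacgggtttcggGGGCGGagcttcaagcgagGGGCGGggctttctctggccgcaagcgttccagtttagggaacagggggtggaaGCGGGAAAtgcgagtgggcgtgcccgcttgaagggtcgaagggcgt
Nhej1 (chr1:75125227-75125476, minus strand): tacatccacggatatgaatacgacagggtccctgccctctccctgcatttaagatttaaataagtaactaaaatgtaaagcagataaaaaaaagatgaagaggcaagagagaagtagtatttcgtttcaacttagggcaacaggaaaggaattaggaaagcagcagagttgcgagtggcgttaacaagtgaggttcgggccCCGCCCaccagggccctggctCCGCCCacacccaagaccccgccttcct
Polq (chr16:37011536-37011785, plus strand): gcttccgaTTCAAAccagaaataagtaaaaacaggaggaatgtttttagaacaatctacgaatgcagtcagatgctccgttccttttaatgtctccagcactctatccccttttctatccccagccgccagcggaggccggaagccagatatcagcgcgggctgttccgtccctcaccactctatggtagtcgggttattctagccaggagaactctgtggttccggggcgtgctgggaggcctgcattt

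The window of Xrcc5 was the poorest in G and C of these 4, at 44.8%, and held 1 CCAAT box and 1 E-box. That of Xrcc6 had 65.2% G and C, with 3 GC boxes and 1 E2F motif. The Nhej1 window held 2 GC boxes at 48.4% G and C, and the Polq window 1 match to TTTGAA at 51.6%. No marked match overlapped a match to another motif. Of 32851 windows of the same length in the table, with a median of 52.4% G and C, 33.8% held a CCAAT box, 32.7% a GC box, 6.02% an E-box and 16.0% TTTGAA. The E2F motif found in Xrcc6 occurred in 0.895% and the other E2F motif in 0.417%. The shares were 2.88% for the ETS motif, 2.26% for the NRF1 motif and 10.2% for the antioxidant core. These matches are letters in a window and were not measured as binding sites.

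Xrcc5, the Ku80 subunit, had log2 values of 9.60, 9.78 and 9.75 on the WT arrays and of 8.98, 8.39 and 8.78 on the KO arrays. All 3 KO arrays thus lay well below the lowest WT array, although they also spread more widely, with KO replicate 2 the lowest. The mean was 9.71 ± 0.10 (SD, n = 3) in WT cells and 8.72 ± 0.30 (SD, n = 3) in KO cells. The log2 change (KO minus WT) was -0.995 (standard error, SE, 0.13, 95% confidence interval -1.29 to -0.70, limma adjusted p = 0.00026). It lay between -1.13 and -0.83 with any single array left out, with adjusted p values of 4.52e-05 to 0.00259. At the thresholds of the methods, an adjusted p under 0.05 together with a fold-change over 2, which 5.3% of all genes passed, none of the 9 genes was called. Xrcc5 lay just short of this fold, and it passed both thresholds at -1.01 with quantile normalization (adjusted p = 6.03e-05), at -1.05 without WT replicate 1, at -1.13 without KO replicate 1 and at -1.03 without KO replicate 3. With a fold-change over 1.5 (11.9% of all genes) it was called and the other members were not. In RNA from a whole culture, fewer cells that express a gene and less of its RNA per cell cannot be told apart.

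Xrcc6, the Ku70 subunit, gave 7.50, 7.66 and 7.77 in WT and 8.09, 7.84 and 7.99 in KO cells. The highest WT array and the lowest KO array were 0.07 apart, a gap smaller than the SD of either genotype. The log2 change was 0.33 (SE 0.09, limma adjusted p = 0.017). It lost its call without WT replicate 1 or 2 or KO replicate 1 or 3, at adjusted p values of 0.0533 to 0.0602, with estimates of 0.26 to 0.34. The change of Xrcc6 exceeded that of Xrcc5 by 1.33 on the log2 scale (SE 0.11), and this difference, taken within each array, did not overlap between genotypes. Its exact permutation p was 0.1 (two-sided, n = 3 per genotype), the smallest that 3 arrays against 3 can give, and 0.2 after adjustment over the 4 pairs of partners compared.

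**Figure D1:**
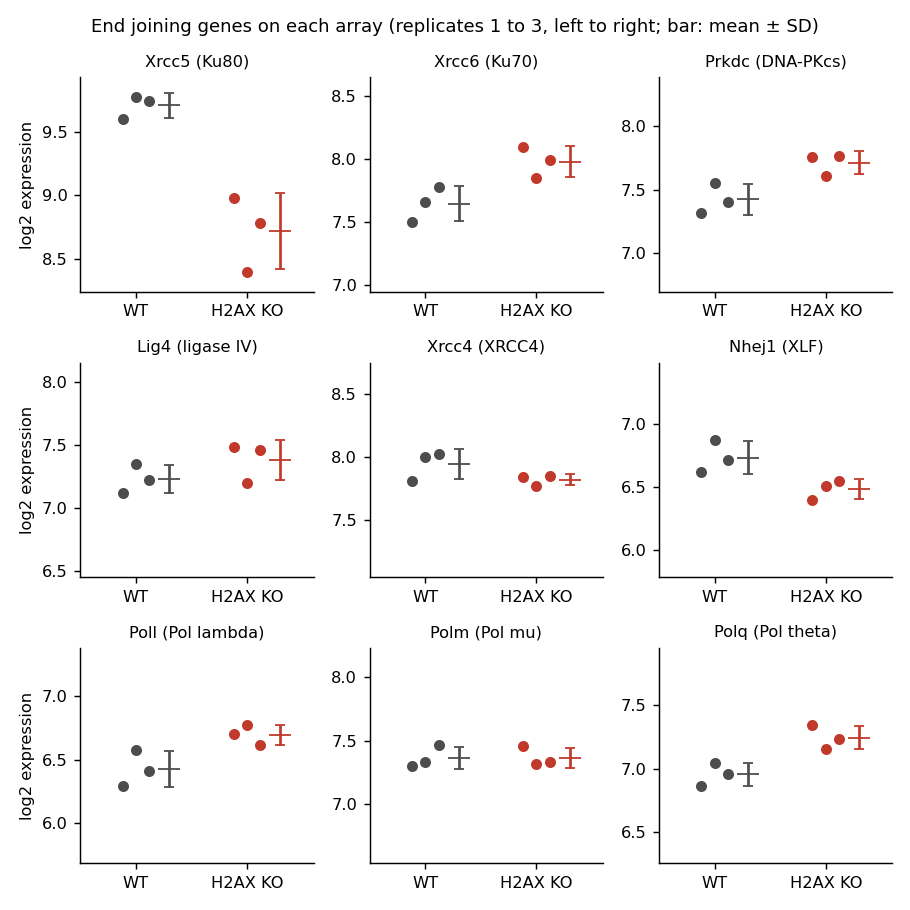
Log2 expression (y axis) of the 9 measured end joining genes on the 3 WT and 3 H2AX KO arrays, with 1 point per array and the mean ± SD beside the points; each panel spans the same range of log2 units. The KO arrays of Xrcc5 lie at 8.39 to 8.98, below all WT arrays, those of Xrcc6, Prkdc, Poll and Polq lie just above the WT arrays, and those of Lig4, Xrcc4 and Polm overlap them.

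Prkdc encodes DNA-PKcs, the kinase that Ku holds at the break and that can also phosphorylate H2AX. Its values were 7.31, 7.56 and 7.40 in WT and 7.76, 7.61 and 7.77 in KO cells. The KO arrays lay above the WT arrays by as little as 0.05. The log2 change was 0.29 (SE 0.08, limma adjusted p = 0.0206), and the call was lost without WT replicate 1 or 3 or KO replicate 1 or 3, at adjusted p values of 0.061 to 0.086. Of 6 members of its protein family, Prkdc and Atr, which answers replication stress, rose, and none fell, a share called of 33.3% beside 33.4% of all genes. Atr had a log2 change of 0.59 (limma adjusted p = 0.001). The others, Atm, Mtor, Smg1 and Trrap, lay between -0.06 and 0.17 and did not pass the test. The second probe set of Trrap had a log2 change of 0.26 (limma adjusted p = 0.045 over all probe sets).

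In the ligation complex, Lig4 and Xrcc4 did not pass the test and Nhej1 fell. Lig4, the ligase that seals the break, gave 7.12, 7.35 and 7.22 in WT and 7.48, 7.20 and 7.47 in KO cells, and the genotypes overlapped. Its log2 change was 0.15 (95% confidence interval -0.06 to 0.36, limma adjusted p = 0.274). Without KO replicate 2, the lowest of its KO arrays, this was 0.24 (adjusted p = 0.041). Xrcc4, which stabilizes ligase IV, gave 7.81, 8.004 and 8.02 in WT and 7.84, 7.78 and 7.85 in KO cells. Its genotypes also overlapped, with a log2 change of -0.12 (95% confidence interval -0.29 to 0.04, adjusted p = 0.257).

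Nhej1, the gene of XLF, gave 6.62, 6.87 and 6.71 in WT and 6.40, 6.51 and 6.55 in KO cells. All KO arrays were lower than all WT arrays, by at least 0.07. Its log2 change was -0.25 (SE 0.08, limma adjusted p = 0.0384). The call was lost without WT replicate 2 or 3 or KO replicate 1 or 3, at adjusted p values of 0.0624 to 0.15 and estimates of -0.28 to -0.18. The change of Xrcc4 exceeded that of Nhej1, its structural relative, by 0.13 (SE 0.07), with overlapping arrays and an exact permutation p of 0.3 (n = 3 per genotype, 0.3 after adjustment). Lig4 exceeded Xrcc4 by 0.27 (SE 0.08) without overlap, at an exact p of 0.1 (n = 3 per genotype, 0.2 after adjustment). With each array centred by chromosome both of these differences turned, to -0.08 (SE 0.08) for Xrcc4 and Nhej1 and to -0.06 (SE 0.10) for Lig4 and Xrcc4, with overlapping arrays and exact permutation p values of 0.4 and 0.5 (n = 3 per genotype, 0.5 for both after adjustment). The limit of this centring is given below.

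Among the polymerases, Poll and Polq rose and Polm did not pass the test. Poll gave 6.29, 6.58 and 6.41 in WT and 6.70, 6.77 and 6.61 in KO cells, a log2 change of 0.27 (SE 0.08, limma adjusted p = 0.0321). The genotypes were separated by 0.04, and the call was lost without WT replicate 1 or 3 or KO replicate 1 or 2, at adjusted p values of 0.0696 to 0.104. Polm, the close relative of Poll, gave 7.30, 7.33 and 7.46 in WT and 7.46, 7.31 and 7.33 in KO cells. These ranges nearly coincided, and the 95% confidence interval of its log2 change ran from -0.16 to 0.16 (adjusted p = 0.993). Poll exceeded Polm in change by 0.27 (SE 0.12), with overlapping arrays and an exact permutation p of 0.2 (n = 3 per genotype, 0.267 after adjustment). Polq, of the microhomology route, gave 6.86, 7.05 and 6.95 in WT and 7.34, 7.16 and 7.24 in KO cells. Its log2 change was 0.29 (SE 0.07, limma adjusted p = 0.0134), and with Xrcc5 it was the only member that remained called with each array left out in turn (adjusted p at most 0.048).

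**Figure D2:**
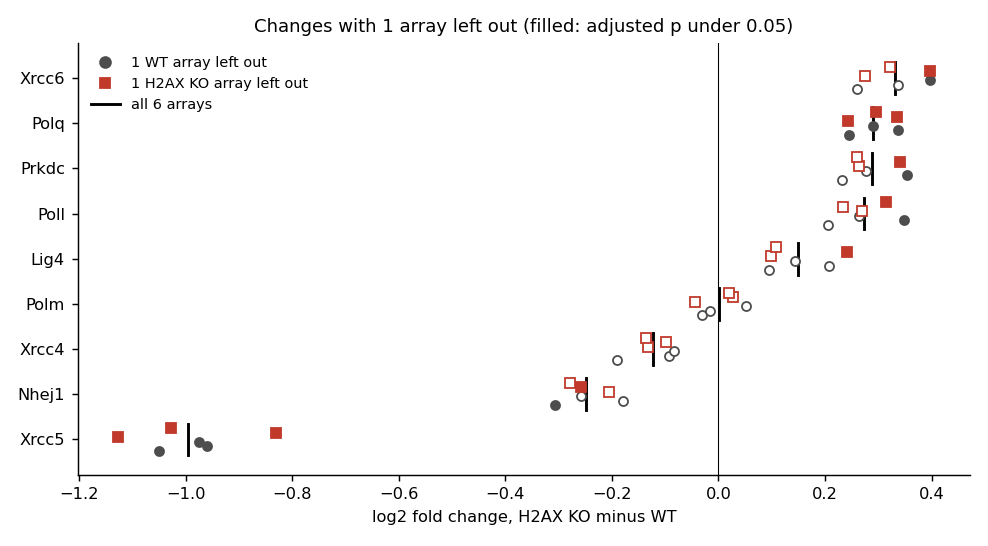
Log2 fold change of H2AX KO minus WT (x axis) for each measured end joining gene with all 6 arrays (black line) and with 1 array left out (grey circles for WT, red squares for KO arrays). Filled symbols passed an adjusted p under 0.05: all 6 for Xrcc5 and for Polq, 2 of 6 for Xrcc6, Prkdc, Poll and Nhej1, 1 of 6 for Lig4 and none for Xrcc4 and Polm.

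In all, 6 of the 9 genes had no overlap between the genotypes, as had 44.8% of all genes. With the per-gene test named in the methods, which does not moderate the variance, Xrcc5 was lower (adjusted p = 0.0293) and no other member passed, against 23.6% of all genes. The array values themselves followed an order that the members shared. WT replicate 1 was the lowest WT array for 9 of 9 members, and for 47.2% of all genes. KO replicate 2 was the lowest KO array for 7 of 9 members, and for 41.1% of all genes. Leaving each array out, as given above, shows how far the estimates move, but it also leaves fewer arrays in the test. Calls lost in this way therefore do not measure the part of these arrays in the small differences, which was not tested.

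Called members lay on chromosomes where more genes were called in the same direction as the member than in the other, except for Xrcc6. Such skews were general: of 20 chromosomes, 8 had a larger share lower than higher. How many of all called genes went with their chromosome in this way was not computed, so this does not set the members apart. On chromosome 1, which carries Xrcc5 and Nhej1, 30.9% of 1126 genes were lower and 5.33% were higher in KO cells, with a median log2 change of -0.07. The arrays of the genotypes did not overlap in this measure: the median of chromosome 1 genes, relative to the median of all genes, lay between 0.01 and 0.05 on the WT arrays and between -0.18 and -0.16 on the KO arrays. On chromosome 16, with Prkdc and Polq, 24.2% were higher and 10.0% lower. On chromosome 19, with Poll, 32.6% were higher and 6.93% lower. Chromosome 15, with Xrcc6, was closer to even, at 13.2% higher and 18.4% lower. Lig4 lies on chromosome 8, where 45.3% of genes were higher, Xrcc4 on chromosome 13 (9.8% higher, 19.5% lower) and Polm on chromosome 11 (21.1% higher, 10.9% lower).

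When each array was centred on the median of each chromosome, which left 33.5% of all genes called, Xrcc5 still fell, by 0.78 (limma adjusted p = 0.000797). This subtracts the shift in the median expression level of a chromosome, not its median log2 change, and these can differ in size and direction. Nhej1 moved from -0.25 to -0.04, although the median log2 change of chromosome 1 was -0.07. Polm moved from 0.001 to 0.022, although that of chromosome 11 was 0.05. Estimates with centring thus depend on this choice. Calls lost or gained may depend on it too, but no fit with a median log2 change subtracted was made. Nhej1, at -0.04 (adjusted p = 0.77), no longer passed, nor did Poll at 0.15 (adjusted p = 0.215). Xrcc6 at 0.37 (adjusted p = 0.0115), Prkdc at 0.26 (adjusted p = 0.0396) and Polq at 0.26 (adjusted p = 0.0307) remained higher. Lig4 turned from 0.15 to -0.17 without passing the test (adjusted p = 0.142). Between partners, Xrcc6 then exceeded Xrcc5 in change by 1.15 (SE 0.11) without overlap, and Poll exceeded Polm by 0.13 (SE 0.13) with overlap, at exact permutation p values of 0.1 and 0.3 (n = 3 per genotype, 0.4 and 0.5 after adjustment over the 4 pairs). The measured genes on either side of Xrcc5, Tmem169 and Marchf4, did not pass the test in the fit without centring, at -0.06 (adjusted p = 0.499) and -0.13 (adjusted p = 0.201). Of the 10 nearest measured genes, 2 were lower and none was higher, and of the 37 between Xrcc5 and Nhej1, 8 were lower and 3 were higher.

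**Figure D3:**
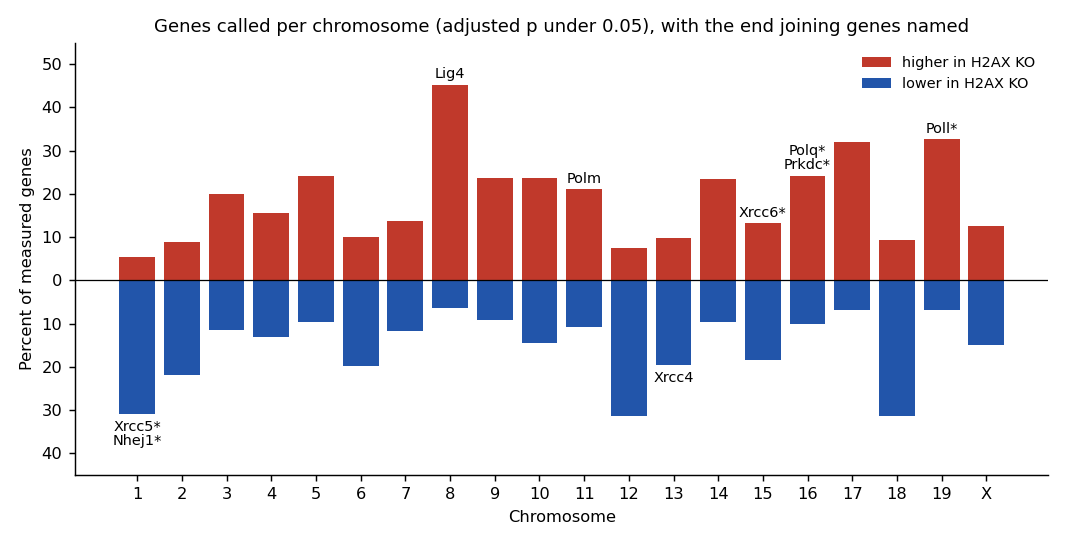
Percent of measured genes per chromosome that were higher (red, above 0) or lower (blue, below 0) in H2AX KO cells at an adjusted p under 0.05. End joining genes are written above or below the bar by the direction of their estimate, with an asterisk where they passed the test; Xrcc5 and Nhej1 share chromosome 1, where 30.9% of genes were lower and 5.33% were higher.

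The genes whose profile over the 6 arrays lay closest to that of Xrcc5, by Euclidean distance between mean-centred log2 values, were Nrn1 (neuritin), Pfn2 (profilin 2, which binds actin) and Nck2 (an SH2 and SH3 adaptor), at distances of 0.0628, 0.11 and 0.111. Nrn1 gave 9.86, 9.99 and 10.01 in WT and 9.28, 8.65 and 9.05 in KO cells. As with Xrcc5, KO replicate 2 was the lowest array of each, a likeness that follows from choosing these genes by profile. Of these, Nck2 lies on chromosome 1, Nrn1 on chromosome 13 and Pfn2 on chromosome 3.

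Beyond the core reaction, 31 further genes were measured, from 3 lists that also cover alternative end joining and end resection. Not all of them act in non-homologous end joining. Of the 31, 12 rose, 5 fell and 14 did not pass the test, with a median log2 change of 0.15. The share called was 54.8% beside 33.4% of all genes, with 38.7% higher beside 18.4% and 16.1% lower beside 15.0%. The share over all genes includes dim genes, among which a smaller part was called, as given above. Averages over the genes of each list below lay between 7.47 and 8.37 per array, whereas the median gene had a mean of 6.39. The shares of these lists were not matched for expression level and do not show an excess of calls. Of 9 measured accessory and end-processing factors, 2 rose and 1 fell, a share called of 33.3% that is near that of all genes (33.4%). Wrn, the Werner helicase and exonuclease that binds Ku, rose by 0.51 (limma adjusted p = 0.000403). Wrn lies on chromosome 8, and with chromosome centring its log2 change was 0.19 and no longer passed (adjusted p = 0.0648). Cyren, a small Ku-binding inhibitor of end joining, fell by 0.66 (adjusted p = 0.000509), from 6.84, 6.98 and 7.24 in WT to 6.37, 6.31 and 6.40 in KO cells. Tdp1, which frees DNA ends from trapped topoisomerase I, rose by 0.26 (adjusted p = 0.00718), but its second probe set had a log2 change of -0.24 (adjusted p = 0.147 over all probe sets). Paxx, the third relative of Xrcc4 and Nhej1, had a log2 change of -0.03 (adjusted p = 0.859).

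The branch of 53BP1 and shieldin protects DNA ends from resection, and 53BP1 accumulates on chromatin downstream of phosphorylated H2AX. Of 9 measured genes, 3 rose and 2 fell, a share called of 55.6% beside 33.4% of all genes. Trp53bp1, which encodes 53BP1, had values of 8.13, 8.22 and 8.35 in WT and of 7.80, 7.65 and 7.79 in KO cells, a log2 change of -0.49 (limma adjusted p = 0.000783). Of the factors that act with it, Rif1 rose by 0.53 (adjusted p = 0.00505), Mad2l2, the REV7 subunit of shieldin, by 0.78 (adjusted p = 1.6e-05) and Shld2, another shieldin subunit, by 0.63 (adjusted p = 0.000572). Dynll1, a light chain that binds 53BP1, fell by 0.21 (adjusted p = 0.0334), and Shld1 had a log2 change of -0.03 (adjusted p = 0.802).

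Of 13 measured genes of alternative end joining and end resection, 7 rose and 2 fell, a share called of 69.2% beside 33.4% of all genes. The ligases Lig1 and Lig3 rose by 0.28 (limma adjusted p = 0.00725) and 0.31 (adjusted p = 0.0209), as did Xrcc1, the scaffold of ligase III, by 0.29. The resection nuclease genes Mre11a and Dna2 rose by 0.30 and 0.68, Rad50, the partner of MRE11, by 0.25 and the annealing factor Rad52 by 0.26. Dna2 had the smallest adjusted p of these, 5.01e-05, and the others had adjusted p values of 0.00725 to 0.0419. With chromosome centring, Mre11a no longer passed, at 0.23 (adjusted p = 0.0904). Both subunits of the flap nuclease that trims annealed ends were lower. Ercc1 gave 9.82, 9.71 and 9.88 in WT and 8.79, 9.10 and 8.78 in KO cells, a log2 change of -0.91 (adjusted p = 4.91e-05), and Ercc4 fell by 0.34 (adjusted p = 0.0466), although its arrays overlapped. Parp1, Fen1, Nbn and Exo1 had log2 changes of 0.01 to 0.16 and did not pass the test. Parp1, an early sensor of DNA breaks, and the exonuclease gene Exo1 lie on chromosome 1, and both passed with chromosome centring, at 0.29 (adjusted p = 0.0173) and 0.36 (adjusted p = 0.024).

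**Figure D4:**
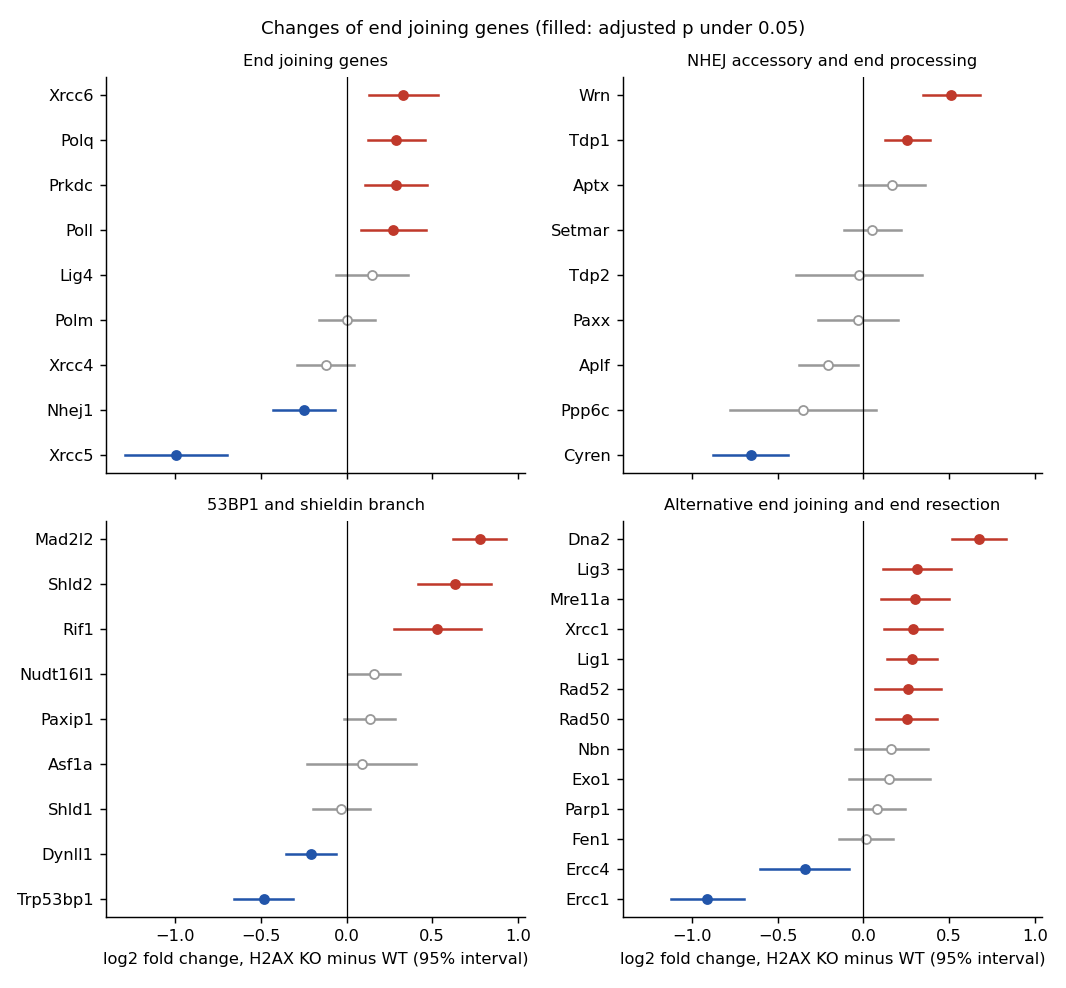
Log2 fold change of H2AX KO minus WT (x axis) with its 95% confidence interval from limma for the 9 measured end joining genes and for 3 groups of related genes. Filled points passed an adjusted p under 0.05, red for higher and blue for lower; the extremes are Xrcc5 at -0.995 and Mad2l2 at 0.78.

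The 8 fibroblast markers tested, among them Col1a1, Vim and Pdgfra, read between 8.66 and 13.23. Of these, 4 rose and 3 fell, a share called of 87.5% beside 33.4% of all genes. They read above the median gene (6.39), and these shares were likewise not matched for expression level. Pdgfrb rose by 1.70, Pdgfra by 0.77, Col1a1 by 0.60 and Col1a2 by 0.43, S100a4 fell by 0.47, and Col3a1 and Fn1, both on chromosome 1, fell by 0.28 and 0.29 but did not pass with chromosome centring (adjusted p = 0.471 and 0.428). Genes of V(D)J recombination in lymphoid cells, Rag1, Rag2 and Dntt, read between 3.92 and 4.86 on all arrays, and none of the 3 passed the test (limma, 0 at an unadjusted p under 0.05). Leukocyte markers (7 measured) had means of 5.06 to 5.17 over the WT arrays and of 5.12 to 5.22 over the KO arrays, with Cd68 higher and the other 6 not passing the test. None of 6 epithelial markers passed, and of 4 endothelial markers Cdh5 fell. Of 15 measured proliferation markers, 2 rose (Mcm5 and Mcm7), 2 fell (Pcna and Mcm6) and 11 did not pass the test, a share called of 26.7% beside 33.4% of all genes, with array means of 10.17 to 10.30 in WT and 10.26 to 10.36 in KO cells. Their part in the results above was not tested.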

How the data were processed

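Total RNA was hybridized to Affymetrix Gene ST arrays, and the authors, per the submitters' notes, processed the scans with Affymetrix Expression Console and with Partek (version 6.6), where normalization was done. The deposited log2 values cover 35556 probe sets, with array medians of 6.06 to 6.12. No source used here gives the normalization method or the genome build. Such values cannot show a change in the total RNA of a cell. Probe set identifiers were those of the Mouse Gene 1.0 ST array and were annotated as such; the methods state version 2.0. Of 23410 annotated probe sets, 21789 had 1 symbol and 1621 had several; the latter were left out. Symbols were updated through RefSeq gene identifiers (GRCm38.p6), which matched 21698 probe sets. Where a gene had several probe sets, the brightest on average was kept, leaving 19938 genes.

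Genotypes, taken from the sample titles, were compared with limma (version 3.58.1, R version 4.3.3) as lmFit and eBayes without covariates, and p-values were adjusted over all genes by Benjamini-Hochberg. The procedure was tested on simulated data. Exact permutation tests were two-sided. The members and gene lists were chosen with earlier results of these data known. All measured members are named, of the other end joining lists the called genes, with H2ax, Rag1, Rag2, Dntt and the 3 genes nearest in profile to the called member of largest change; further genes named were chosen after their values were seen. The alternatives were a replicate block, leaving out each array, one-way ANOVA, eBayes with its trend and robust options, quantile normalization, median centring, a filter on low means, the mean of probe sets, all probe sets, and fold-changes over 1.5 or 2. Chromosome centring, also of pairs and lists, and the fold-change over 2 within each alternative were chosen after seeing the data. The centring subtracted, on each array, the median expression of a chromosome relative to that of all genes, and not a median log2 change. Genes without a chromosome were left uncentred. The number of arrays limits the precision.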

Additional observations from a re-analysis of the deposited data

How the results depend on the processing

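Xrcc5 was called as lower in every fit run, with a log2 fold change of -1.13 to -0.78, and at a fold-change over 2 it passed in 4 of 16 fits: with quantile normalization and without WT replicate 1, KO replicate 1 or KO replicate 3. The number of members higher in H2AX KO cells, 4 with all arrays, lay between 1 and 4 with an array left out, and was 0 with one-way ANOVA, 2 with all probe sets, 0 at a fold-change over 1.5 and 0 at a fold-change over 2. The number lower, 2 with all arrays, lay between 1 and 2 with an array left out, and was 1 with one-way ANOVA, 1 with the trend and robust variance prior, 1 with all probe sets, 1 with chromosome centring, 1 at a fold-change over 1.5 and 0 at a fold-change over 2. Over all genes, 1130 were higher and 1244 lower at a fold-change over 1.5, and 422 higher and 634 lower at a fold-change over 2, against 3676 and 2990 without a fold threshold. The sign of Polm, near 0, turned to -0.022 with quantile normalization and to -0.00089 with median centring, and ran from -0.044 to 0.0509 with an array left out. That of Lig4 turned to -0.17 with chromosome centring. Neither passed the test there. The cause of these changes was not tested, except that leaving out an array and testing all probe sets by construction use fewer arrays and more features.

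Deviations from the genotype means correlated at -0.293, -0.239 and 0.08 between arrays of the same number. Between arrays of different number they correlated at -0.165 to 0.32. The largest were 0.32 for WT replicate 1 with KO replicate 2 and 0.229 for WT replicate 2 with KO replicate 1. Deviations cancel out within a genotype, so these correlations constrain each other and cannot decide whether replicate numbers pair the arrays. Whether these arrays share a source of variation was not tested. With a replicate block, Prkdc kept its estimate of 0.288 but lost its call (adjusted p = 0.0566), and the other 5 called members kept theirs. It called 3170 genes as higher and 2640 as lower. No fit with a block was made for the pairs of partners. The 3 arrays per genotype limit the precision.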
